A study of Mesocentrotus franciscanus with 18 samples.

Results

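The effect of body size shared by 2 tissues of the red sea urchin (*M. franciscanus*) was measured in 12 of the 18 RNA-Seq libraries of the series, 6 from muscle of Aristotle's lantern (ALM), the jaw apparatus of the animal, and 6 from esophagus (ES). Each tissue had 3 libraries of Small and 3 of Large animals (ALM-S, ALM-L, ES-S and ES-L), 1 for each of the sampling years 2010, 2011 and 2013. The animals were wild and untreated, and size stood for age in the study, with Small animals taken as young and Large ones as old. A library pooled equal amounts of RNA from several animals, and the muscle and esophagus of a size and year came from the same animals, so the 12 libraries represent 3 independent pools of each size. All 12 belonged to 1 library series by their names, and the 6 libraries of radial nerve (RN) were not part of the comparison. The Large and Small libraries were compared in 1 model with tissue as a block, and a second model asked whether the effect of size differed between the tissues.

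Muscle of the lantern opens and closes the jaws. In muscle, force comes from myosin sliding along actin, and creatine kinase keeps ATP at hand for it in many animals. The esophagus is a ciliated and secretory tube with a thin layer of muscle around it, so genes of contraction can be read in both tissues. Myostatin is a secreted signal of the TGFβ family known in mammals as a brake on muscle growth. In sea urchins the calcite skeleton is laid down by specialized cells that secrete spicule matrix proteins.

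Total counts ranged from 7865098 to 11547218 per library, and levels are given as CPM, counts scaled by the library size and TMM factor of each library. The tissue labels were checked against the genes of contraction: 16 such genes took 15.0 to 29.9% of the counts of a muscle library and 0.825 to 2.54% of those of an esophagus library. The libraries ALM-S 2010, ALM-L 2011 and ES-L 2010 stood apart, since they deviated from the other libraries of their groups in the same features, with correlations of 0.455 to 0.519 among them and at most 0.403 for any other pair. Ribosomal protein genes moved with them. The summed level of 13 of these genes was 14299 CPM in ALM-S 2010 against 8099 and 5376 in the other ALM-S libraries, 29123 CPM in ALM-L 2011 against 5881 and 10718, and 26336 CPM in ES-L 2010 against 3743 and 4938. The main counts and, for most lists, counts or medians are given below with and without these 3 libraries.

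Of 34168 features tested (Trinity groupings of transcripts, some of them linked to a named gene), 111 differed between Large and Small across both tissues at an adjusted p under 0.05 and a change of over 2-fold, which is 0.325% of the features (edgeR's quasi-likelihood test, Benjamini-Hochberg adjustment). In Large animals 59 were higher (0.173%) and 52 lower (0.152%). Their log2 fold-changes ran from 1.34 to 7.35 (median 2.56) among the features that rose and from −1.19 to −10.32 (median −2.52) among those that fell. At an unadjusted p under 0.05 were 11.7% of all features, 5.79% higher and 5.87% lower. A fit with year as a replicate block called 84 features, 47 higher and 37 lower, and 62 of these were among the 111. When the mean of the 2 tissues of a pool was the unit, 3 pools against 3, limma called 126, of which 70 were among the 111. Without the 3 libraries that stood apart 265 were called, 143 higher and 122 lower, and 82 of the 111 were among them.

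Since the features were called on these same libraries, the overlap of their sizes is a description and no separate support. In 57 of the 59 that rose, every Large library was above every Small library within each tissue, a pattern found in 1.19% of all features tested. In 31 of the 52 that fell, every Large library was below every Small one in both tissues, against 1.01% of all features. Many of those that fell were low in 1 tissue. The mean level was under 1 CPM in ALM for 23 of the 52 and in ES for 11, and 8 of the 111 features had 0 counts in all 6 muscle libraries, so that for these the shared model reports ES alone. Of the 111 features, 50 that rose and 20 that fell had a mean of at least 1 CPM in both tissues.

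**Figure D1:**
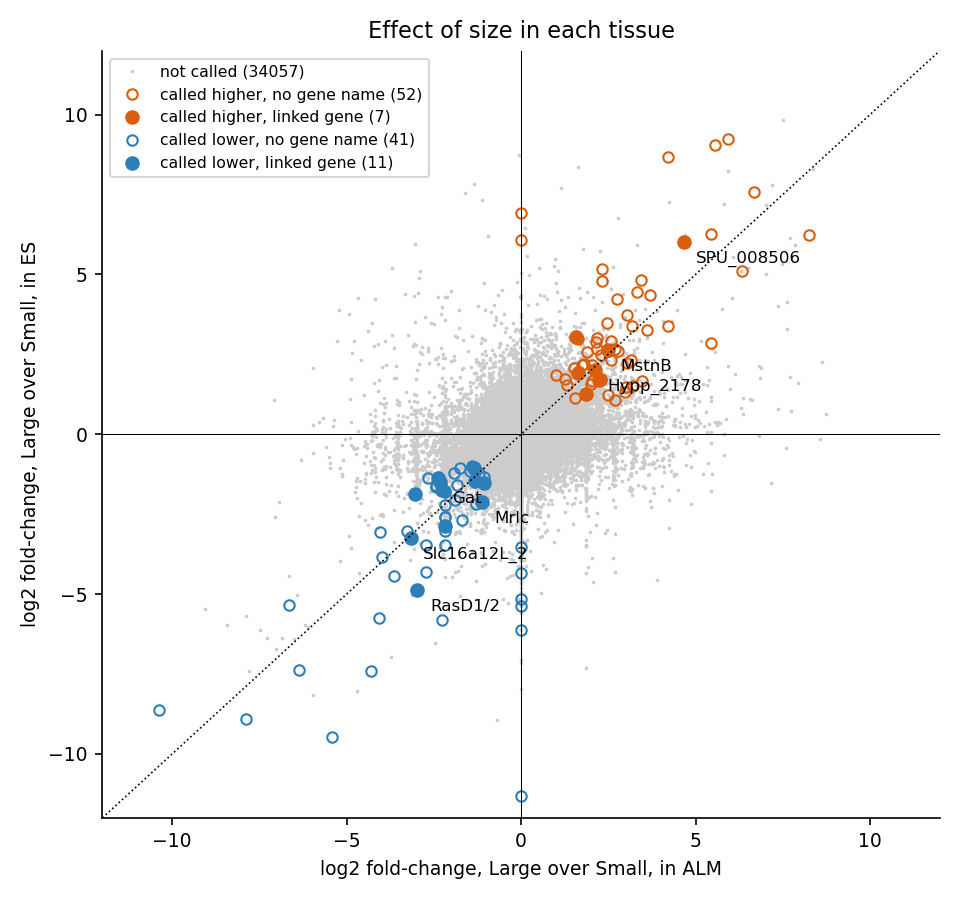
Log2 fold-change of Large over Small in ALM (horizontal) and in ES (vertical) for the 34168 features tested, with the 59 features called higher in orange and the 52 called lower in blue, filled where the feature is linked to a named gene. The dotted line marks equal effects in both tissues, and the called features on the vertical axis line are those with no counts in muscle.

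Of the 111 features, 18 were linked to a gene, 7 that rose and 11 that fell, out of 869 linked genes tested. Of these 18, 17 were already in the lists of genes that the study drew from the same muscle or esophagus libraries, so their direction is not independent evidence. Every linked gene, also in the gene lists below, had been listed by the study as changed with size in at least 1 tissue of these animals. Among the 674 linked genes that the study had listed for RN only, 1 was called (0.148%), the creatine synthesis gene Gamt. Gamt had a log2 fold-change of −5.26 in RN, so its direction is not independent evidence either. The study had not listed the 674 from the same muscle and esophagus libraries, so their low share was partly set by that choice.

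Mrlc (SPU_025244) encodes the regulatory light chain of myosin. Its level was 10857, 11493 and 7535 CPM in ALM-S of 2010, 2011 and 2013 and 5796, 3939 and 3906 CPM in ALM-L. In the esophagus it was 413, 356 and 397 CPM in ES-S and 115, 80.6 and 73.7 CPM in ES-L. The sizes did not overlap in either tissue, and the common log2 fold-change was −1.62 (SE 0.28, edgeR adjusted p = 0.0308). When single libraries or pools were left out, Mrlc was called in 4 of the 18 fits (adjusted p from 0.025 to 0.148).

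Ckm (SPU_015350) encodes muscle creatine kinase, which moves phosphate between ATP and creatine. It was at 8991, 8836 and 6037 CPM in ALM-S and 4393, 3941 and 3052 CPM in ALM-L, and at 372, 318 and 333 CPM in ES-S and 111, 135 and 113 CPM in ES-L. Again no Large library reached the level of a Small one, with a common log2 fold-change of −1.29 (SE 0.23, edgeR adjusted p = 0.0356). With the year as a replicate block the adjusted p of edgeR was 0.056, and Ckm was called in 3 of the 18 fits with a library or pool left out (adjusted p up to 0.172). Gamt (SPU_007775) encodes guanidinoacetate N-methyltransferase, the last enzyme of creatine synthesis. Its level was 204, 167 and 114 CPM in ALM-S and 59.0, 56.3 and 80.3 CPM in ALM-L, and in the esophagus 41.1, 21.5 and 29.9 CPM in ES-S and 12, 12.6 and 9.09 CPM in ES-L. All Large libraries were below all Small libraries of the same tissue, at a common log2 fold-change of −1.38 (SE 0.23, edgeR adjusted p = 0.0278), but without the 3 libraries that stood apart the adjusted p was 0.0622, and Gamt was called in 5 of the 18 fits with a library or pool left out (adjusted p up to 0.137). Gatm (SPU_012540), which encodes the mitochondrial enzyme of the first step of creatine synthesis and was looked up after these values were seen, had a common log2 fold-change of −1.33 (SE 0.42, edgeR adjusted p = 0.199) and did not pass the threshold.

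The homologue of human CSRP2 (SPU_005715) encodes a cysteine- and glycine-rich LIM protein, a family that in vertebrates binds the actin cytoskeleton of muscle cells. It was at 3628, 3721 and 2126 CPM in ALM-S and 770.1, 566 and 494 CPM in ALM-L, and at 65.2, 50.4 and 50.7 CPM in ES-S and 23.2, 23.8 and 16.9 CPM in ES-L. This was a fall in every pair of libraries of a tissue and year, with a common log2 fold-change of −1.88 (SE 0.28, edgeR adjusted p = 0.012), and it was called in 15 of the 18 fits with a library or pool left out. Its difference between the tissues was not called (0.99 on the log2 scale in ES over ALM, SE 0.47, unadjusted p = 0.0546 and adjusted p = 1 from edgeR).

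**Figure D2:**
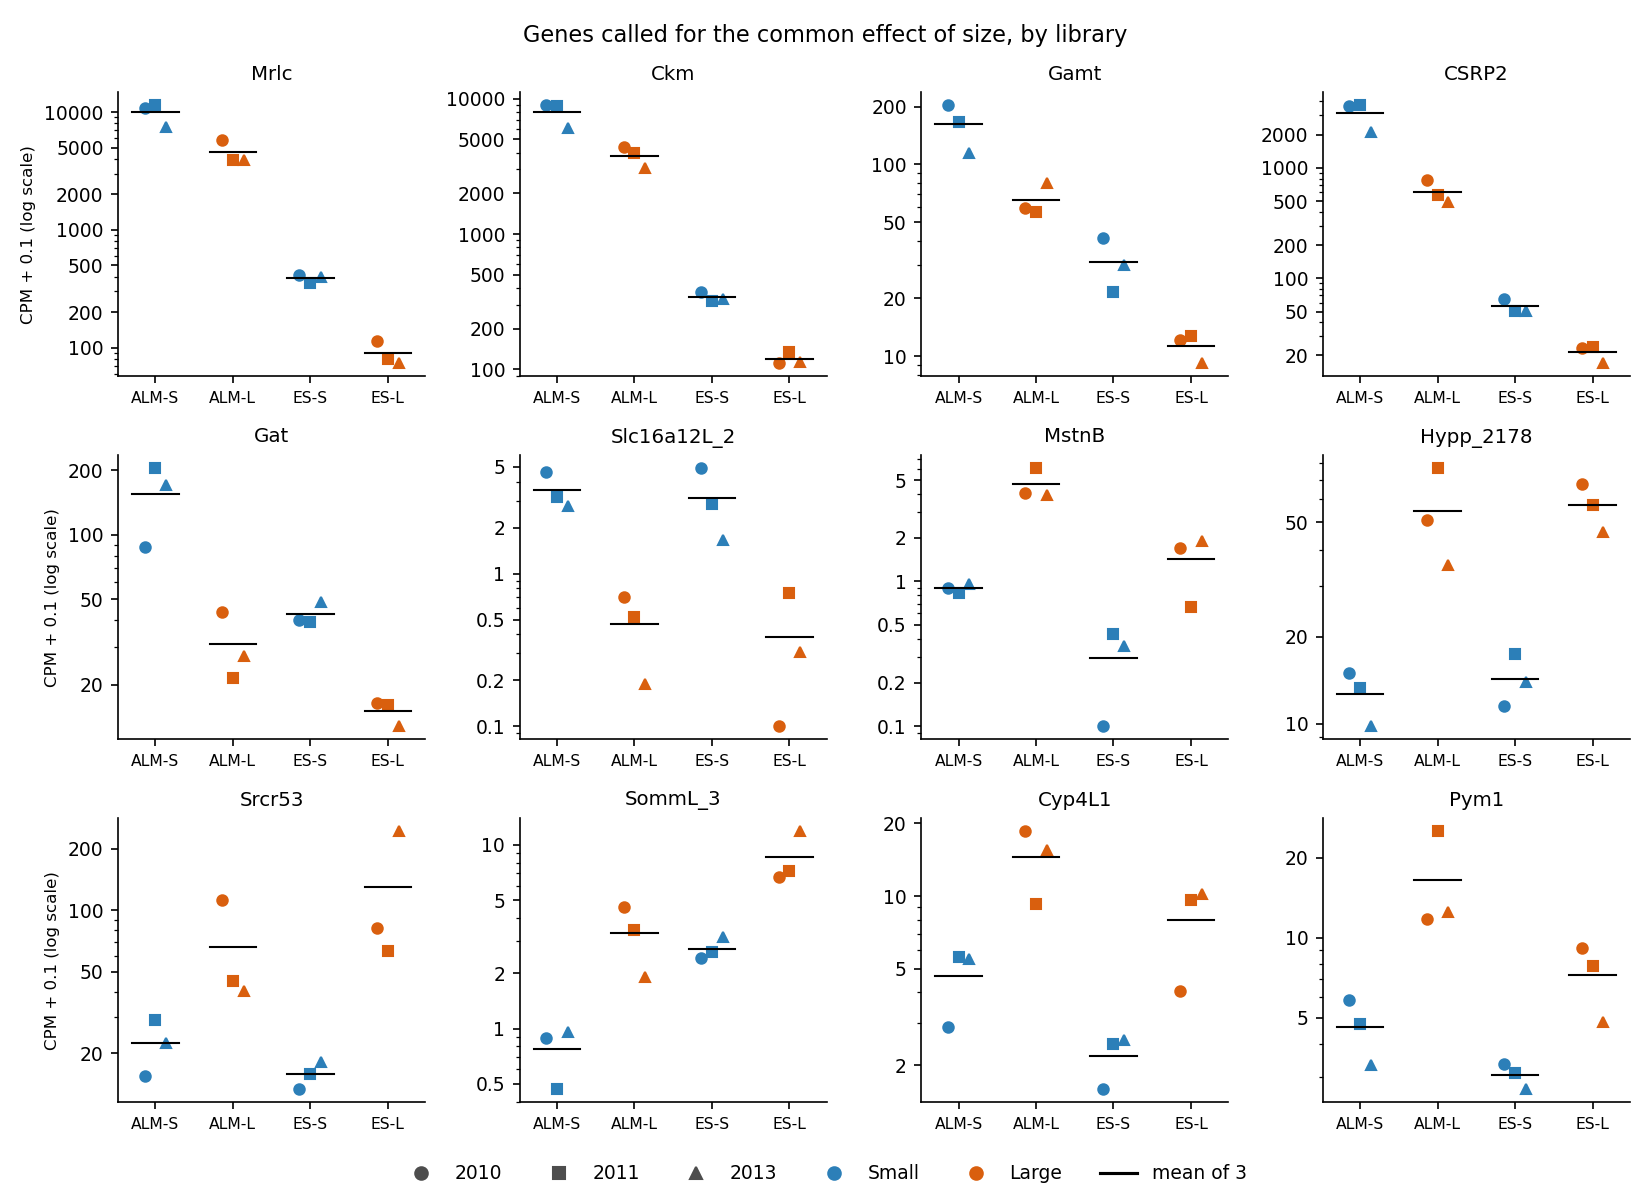
Level in CPM plus 0.1, on a log axis that differs by panel, of 12 linked genes called for the common effect of size in ALM-S, ALM-L, ES-S and ES-L. Points are libraries by sampling year and bars the mean of 3. In all 12 panels the Small and Large libraries of each tissue do not overlap.

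Of 19 genes in a list of myosin, actin, tropomyosin, troponin and other sarcomere proteins, 16 were linked and tested, and 15 of the 16 had a lower fitted level in Large, 12 of them at an unadjusted p under 0.05 (5.87% of all features). The median log2 fold-change of the list was −0.85 (−0.75 in ALM and −0.73 in ES), beside a median of 0 over all features, and Mrlc was the 1 member called. The study had listed 7 of the 16 for ALM or ES and the others for RN of the same animals. A gene could be linked only if the study had listed it as changed with size. The counts of this list therefore describe chosen genes and are no unbiased reading of the family. Under DESeq2 7 members were called lower, and without the 3 libraries that stood apart 2. Over all features these settings called 362 and 122 lower, in that order, against 52 in the fit to all 12 libraries with edgeR. The 16 genes took 26.1, 29.7 and 29.9% of all counts in ALM-S and 21.7, 15.0 and 18.4% in ALM-L. In the esophagus their share was 2.47, 2.0 and 2.54% in ES-S and 0.825, 1.35 and 1.49% in ES-L. The shares of the sizes did not overlap in either tissue. In bulk tissue fewer muscle cells and less of these RNAs per cell cannot be told apart.

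My18A (SPU_010054), a myosin heavy chain gene, was at 41181, 32922 and 32593 CPM in ALM-S and 17775, 21213 and 12602 CPM in ALM-L, and at 723, 681 and 402 CPM in ES-S and 252, 211 and 145 CPM in ES-L. No Large library reached the lowest Small one, but the gene did not pass the threshold (log2 fold-change −1.31, SE 0.29, edgeR adjusted p = 0.0643). ProjL (SPU_013917), a titin-like protein named after the projectin of insect muscle, had 3362, 3859 and 3985 CPM in ALM-S against 1648, 869 and 1019 in ALM-L, and 84.9, 71.1 and 50.3 CPM in ES-S against 22.3, 47.2 and 33.5 in ES-L. It did not overlap between the sizes and also missed the threshold (log2 fold-change −1.33, SE 0.28, edgeR adjusted p = 0.0577).

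**Figure D3:**
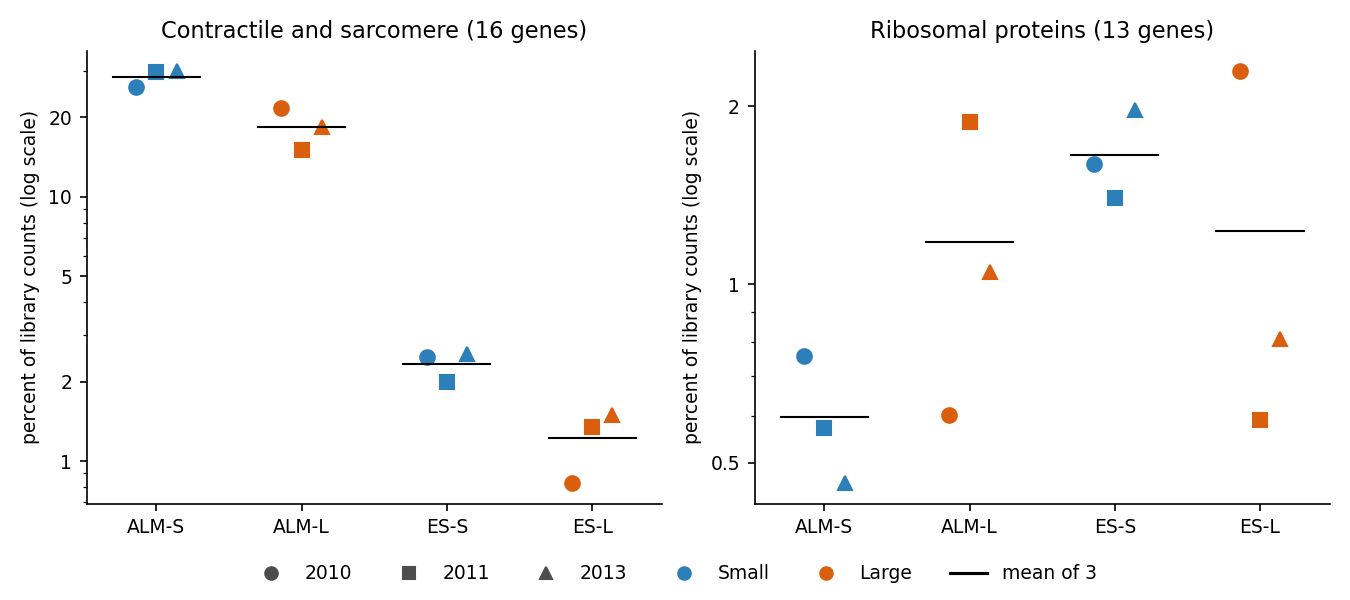
Percent of all counts of a library (log axis) taken by 16 genes of contraction and by 13 ribosomal protein genes, by library, with the mean of 3 as a bar. The contractile share is lower in every Large library than in any Small library of the same tissue, while the ribosomal share is highest in ALM-L 2011 and ALM-L 2013 among muscle libraries and in ES-L 2010 among esophagus libraries.

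Another 3 of the called genes encode membrane transporters. Gat (SPU_006561) is a GABA transporter, of the family that clears this transmitter from around cells. It was at 87.6, 205 and 171 CPM in ALM-S and 43.6, 21.5 and 27.1 CPM in ALM-L, and at 40.1, 39.3 and 48.4 CPM in ES-S and 16.3, 15.9 and 12.7 CPM in ES-L. Gat had a common log2 fold-change of −1.92 (SE 0.28, edgeR adjusted p = 0.0114) and was called in 15 of the 18 fits with a library or pool left out. Slc16a12L_2 (SPU_001906), a monocarboxylate transporter whose human homologue carries creatine, was at 4.56, 3.06 and 2.69 CPM in ALM-S and 0.604, 0.416 and 0.0898 CPM in ALM-L, and at 4.83, 2.75 and 1.56 CPM in ES-S and 0, 0.644 and 0.207 CPM in ES-L. It fell by 3.21 on the log2 scale (SE 0.55, edgeR adjusted p = 0.0289) and was called in 5 of the 18 fits (adjusted p up to 0.141). Slc29a1 (SPU_028310), an equilibrative nucleoside transporter, was called with a log2 fold-change of −1.27 (SE 0.23, edgeR adjusted p = 0.0359), but it was at 29.4 to 82.6 CPM in muscle and at 0.743 CPM or less in esophagus, and with the replicate block the adjusted p was 0.0676. Slc29a1 was called in 2 of the 18 fits.

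Another 3 genes were called lower although 1 tissue carried almost all of their counts. The spicule matrix gene Sm32 (SPU_018810) was at 32.3, 19.8 and 20.9 CPM in ALM-S and 5.27, 5.82 and 3.95 CPM in ALM-L, with 1 count in the 6 esophagus libraries. Gnbp1/2/3 (SPU_010643), a glucan-binding protein of the kind that senses microbes in arthropods, was at 229, 159 and 152 CPM in ES-S and 29.6, 62.8 and 53.8 CPM in ES-L and at 0.198 CPM or less in muscle. RasD1/2 (SPU_009826), a small GTPase, was at 1.11, 1.0 and 1.47 CPM in ES-S, at 0, 0 and 0.0689 CPM in ES-L and at 0.215 CPM or less in muscle. For these genes the shared model restates the difference in 1 tissue. Gnbp1/2/3 and RasD1/2 were called in 0 of the 18 fits with a library or pool left out (adjusted p of at least 0.061). Bmp1/TldL2 (SPU_011551), a secreted protease of the tolloid type that in vertebrates trims procollagen, likewise stood at 23.6 to 33.7 CPM in ALM-S, 2.5 to 9.15 CPM in ALM-L and 0.584 CPM or less in esophagus (log2 fold-change −2.31, SE 0.41, edgeR adjusted p = 0.0345, or 0.0559 with the replicate block). Bmp1/TldL2 was called in 5 of the 18 fits and Sm32 in 3.

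Among the genes that rose, MstnB (SPU_002795) is a sea urchin myostatin gene. The pair of primers with which the study measured its transcript by qRT-PCR is printed because it is the only sequence of the transcript read here, in lower case, 5′ to 3′.
MstnB forward: tcgagggtcgtgcgattc
MstnB reverse: cctcatagtgtgcgcgtagaag
MstnB was at 0.793, 0.734 and 0.861 CPM in ALM-S and 3.97, 5.96 and 3.86 CPM in ALM-L, from 4, 6 and 8 counts against 46, 43 and 43. In the esophagus it was at 0, 0.334 and 0.26 CPM in ES-S and 1.6, 0.563 and 1.79 CPM in ES-L, from 0, 4 and 3 counts against 11, 7 and 26. The sizes did not overlap in either tissue, although the esophagus counts are few. The log2 fold-change was 2.50 in ALM (SE 0.66) and 2.63 in ES (SE 0.73), and 2.56 in both together (SE 0.47, edgeR adjusted p = 0.0364). The call was kept in 2 of the 18 fits with a library or pool left out (adjusted p up to 0.165), and with the year as a replicate block the adjusted p was 0.0621.

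Hypp_2178 (SPU_014904), a predicted protein with no known role, was the linked gene with the steadiest rise. It was at 14.9, 13.2 and 9.69 CPM in ALM-S and 50.6, 77.0 and 35.5 CPM in ALM-L, and at 11.4, 17.4 and 13.8 CPM in ES-S and 67.9, 57.2 and 46.2 CPM in ES-L. The change was alike in size in the 2 tissues (log2 fold-change 2.11 in ALM and 2.01 in ES, difference −0.10, SE 0.48). The common log2 fold-change of 2.06 (SE 0.24, edgeR adjusted p = 0.0028) was past the threshold in all 18 fits with a library or pool left out.

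Srcr53 (SPU_006731) belongs to the scavenger receptor cysteine-rich proteins, a family expanded in sea urchins and linked to immunity. It was at 15.3, 29.0 and 22.4 CPM in ALM-S and 112, 45.2 and 40.4 CPM in ALM-L, and at 13.2, 15.7 and 18.0 CPM in ES-S and 82.2, 63.3 and 245 CPM in ES-L. It rose by a log2 fold-change of 2.31 (SE 0.44, edgeR adjusted p = 0.0401, or 0.0676 with the replicate block) and was called in 6 of the 18 fits with a library or pool left out. Of 11 immune marker genes tested (from a list of a strongylocin, a MACPF-domain gene and Srcr genes), 7 had a higher fitted level in Large and Srcr53 was the 1 called. The list went both ways, with 4 higher and 2 lower at an unadjusted p under 0.05 (5.79% and 5.87% of all features). DESeq2 called 3 of the list higher and 2 lower, beside 458 higher and 362 lower over all features. Without the 3 libraries that stood apart 8 of the 11 had a higher fitted level and 1 was called. The median log2 fold-change of the list went from 0.36 to 1.05. The study had listed 6 of the 11 for ALM or ES.

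Cyp4L1 (SPU_005931), a cytochrome P450 of family 4, whose members oxidize fatty acids and foreign compounds, was at 2.77, 5.51 and 5.38 CPM in ALM-S and 18.5, 9.15 and 15.4 CPM in ALM-L, and at 1.49, 2.34 and 2.43 CPM in ES-S and 3.94, 9.58 and 10.1 CPM in ES-L (log2 fold-change 1.78, SE 0.32, edgeR adjusted p = 0.0345). Pym1 (SPU_015376), which takes the exon junction complex off spliced mRNAs, had a log2 fold-change of 1.56 (SE 0.29, edgeR adjusted p = 0.0401, or 0.0535 with the replicate block), from 3.23 to 5.75 CPM in ALM-S to 11.7 to 25.1 in ALM-L and from 2.6 to 3.25 CPM in ES-S to 4.75 to 9.04 in ES-L. SommL_3 (SPU_027632), an uncharacterized gene, was at 0.367 to 0.861 CPM in ALM-S and 1.8 to 4.49 in ALM-L, and at 2.32 to 3.04 CPM in ES-S and 6.56 to 11.8 in ES-L (log2 fold-change 1.93, SE 0.33, edgeR adjusted p = 0.0308, or 0.0544 with the replicate block). All 3 genes were free of overlap in both tissues, and each was called in at most 4 of the 18 fits with a library or pool left out.

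The gene SPU_008506, which has no name, was close to absent in Small animals. It had 2 counts in the 6 Small libraries together, and it was at 0.863, 0.832 and 2.51 CPM in ALM-L and 4.23, 2.25 and 1.79 CPM in ES-L. It was past the threshold (edgeR adjusted p = 0.00531) and in 16 of the 18 fits with a library or pool left out. The study prints 2 sets of counts for 46 of the 123 genes it lists for ES, among them SPU_008506, RasD1/2, Cola2L_2 and Rej8L. The set used here gave the grouping that another list of the study gave for 6 of 6 genes that could be compared, and the other set for 0 of 6, but only Rej8L of these 4 genes could be compared in this way.

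The largest group of called features, 93 of 111, carried no gene name. The grouping TRINITY_DN7935_c2_g1 rose from 0.396, 0.49 and 0.108 CPM in ALM-S to 21.3, 9.01 and 12.4 CPM in ALM-L and from 0.278, 0.167 and 0.174 CPM in ES-S to 15.9, 15.6 and 18.9 CPM in ES-L (log2 fold-change 5.87, SE 0.39, edgeR adjusted p = 1.69e-05). TRINITY_DN18955_c0_g1 was the next by p among those that rose, from 1.62 to 3.06 CPM in the 6 Small libraries to 12.7 to 20.1 CPM in the 6 Large ones (log2 fold-change 2.69, SE 0.25, edgeR adjusted p = 0.000522). The 2 groupings with the lowest p among those that fell were nearly silent in Large. TRINITY_DN4661_c1_g1 was at 0.793, 1.1 and 3.77 CPM in ALM-S and 5.38, 8.51 and 12.3 CPM in ES-S, with 1 count in ALM-L and 0 counts in ES-L, at least 98.6-fold lower in ES-L against a floor of 3 counts over the group (edgeR adjusted p = 0.00123). TRINITY_DN328_c7_g1 was at 0.396, 1.1 and 2.05 CPM in ALM-S with 0 counts in ALM-L, at least 11.8-fold lower, and at 8.45, 11.8 and 4.86 CPM in ES-S against 0, 0.161 and 0.344 CPM in ES-L (edgeR adjusted p = 0.00217). All 4 groupings stayed past the threshold in all 18 fits with a library or pool left out, with the replicate block and without the 3 libraries that stood apart. Over the 111 called features, 7 that rose had at most 3 counts in the 6 Small libraries together and 12 that fell had at most 3 in the 6 Large ones.

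The 15 genes of the skeleton (spicule matrix and MSP130 proteins, carbonic anhydrases, C-type lectins and others) were lower in ALM-L in 15 of 15 cases, with a median log2 fold-change of −2.81, and 13 of the 15 had been listed by the study for ALM or ES. In ES 11 of the 15 had a higher fitted level in Large (median log2 fold-change 0.60), although only 2 passed the filter on low counts when esophagus was fitted alone. For tissue by size 9 of the 15 had an unadjusted p under 0.05 with edgeR, beside 4.57% of all features. Genes listed for 1 tissue were chosen for a change there, so this count was partly set by that choice. Of the 114 tested genes listed for ALM, 65 had such a p. In esophagus the summed level of the 15 skeleton genes was 30.8 to 36.9 CPM in ES-S and 20 to 21.3 CPM in ES-L. In muscle it was 986 to 1045 CPM in ALM-S and 324 to 468 CPM in ALM-L. Most of the esophagus sum came from the carbonic anhydrase Cara14LA (SPU_001138), which had 29.1, 25.3 and 25.9 CPM in ES-S and 12.4, 12.2 and 11.4 CPM in ES-L beside 542, 630 and 731 CPM in ALM-S and 416, 268 and 431 CPM in ALM-L. Cara14LA was lower in Large in 6 of 6 pairs of a tissue and year but did not pass the threshold (log2 fold-change −0.96, SE 0.20, edgeR adjusted p = 0.0596). Sm32 was the 1 gene of the list called for the common effect, against 5 with DESeq2, 7 with pools as a random effect, 6 without ES-L 2010 and 4 without the 3 libraries that stood apart. Over all features these settings called 362, 338, 98 and 122 lower, in that order, against 52 in the fit to all 12 libraries with edgeR. When any 1 muscle library was left out, 0 genes of the list were called. Sm30E (SPU_004867), a spicule matrix gene measured by the study by qRT-PCR, had 13.7 to 37.4 CPM in ALM-S and 0.628 to 2.64 CPM in ALM-L but at most 0.65 CPM in esophagus, and a common log2 fold-change of −3.41 (SE 0.69) that missed the threshold (edgeR adjusted p = 0.0518, or 0.013 without the 3 libraries).

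Of the collagen and basement membrane genes, 13 were tested, 9 with a lower fitted level in Large and 4 of those at an unadjusted p under 0.05 (5.87% of all features). The median log2 fold-change was −1.17 in ALM and −0.26 in ES, and 5 of the 13 had an unadjusted p under 0.05 for tissue by size (4.57% of all features). The study had listed 5 of the 13 for ALM or ES, among them Bmp1/TldL2, 6Afcol and FcolI/II/IIIf. The count for tissue by size was partly set by that choice as well. The protease Bmp1/TldL2, described above, was the 1 member called, and DESeq2 called 3 and the fit with the replicate block 0. Over all features DESeq2 called 362 lower and the fit with the replicate block 37. The median of the list over both tissues was −0.80, and −0.37 without the 3 libraries that stood apart. The fibrillar collagen 6Afcol (SPU_009076) was at 64.6, 48.7 and 45.9 CPM in ALM-S and 13.7, 14.4 and 14.4 CPM in ALM-L, and at 38.5, 22.6 and 26.5 CPM in ES-S and 15.2, 16.5 and 21.1 CPM in ES-L. Its sizes did not overlap in either tissue, but the threshold was missed (log2 fold-change −1.32, SE 0.27, edgeR adjusted p = 0.0518). Another fibrillar collagen, FcolI/II/IIIf (SPU_026008), had a common log2 fold-change of −1.29 (SE 0.36, edgeR adjusted p = 0.141) and overlapped between the sizes in esophagus.

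The axoneme genes build the moving core of cilia. Of 20 tested, 19 had a higher fitted level in Large (49.8% of all features) and 7 of them an unadjusted p under 0.05 (5.79% of all features). Of the 20, 0 were called by edgeR and 2 by DESeq2, which called 458 higher over all features. The median log2 fold-change of the list was 0.05 in ALM and 1.16 in ES. In ES 20 of 20 were higher (49.3% of all features), and the study had listed 5 of the 20 for ALM or ES. Without the 3 libraries that stood apart 20 of 20 were higher across the tissues, 0 were called, and the median of the common effect went from 0.49 to 0.81. Their summed level was 113, 94.9 and 102 CPM in ES-S and 108, 294 and 357 CPM in ES-L, so that ES-L 2010 stood within the Small range and ES-L 2011 and 2013 above it. Iqcg (SPU_027893), CFAP126 (SPU_012151), CFAP69 (SPU_005756) and Spag8 (SPU_025980) had common log2 fold-changes of 1.17, 1.29, 0.99 and 0.95, with adjusted p from 0.125 to 0.179 (edgeR).

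For the ribosomal proteins, 12 of 13 had a higher fitted level in Large and 0 an unadjusted p under 0.05, with a median log2 fold-change of 0.29. Without the 3 libraries that stood apart all 13 were lower, with a median of −0.61. Rps28 (SPU_013834) was at 1065, 436 and 393 CPM in ALM-S, 427, 3176 and 923 CPM in ALM-L, 964, 618 and 1183 CPM in ES-S and 2163, 358 and 466 CPM in ES-L, high in 1 library of each Large group. The common log2 fold-change was 0.68 for Rps28 (SE 0.56), 0.45 for Rpl29 (SE 0.57) and 0.42 for Rpl24 (SE 0.56), and without the 3 libraries it was −0.24, −0.52 and −0.61. Of the 17 synaptic genes tested, 14 had a lower fitted level in Large (median −0.33, 0 called, an unadjusted p under 0.05 for 1 lower and 1 higher). These were the acetylcholine-degrading AchE_2 at −0.62 (SE 0.22, edgeR adjusted p = 0.265) and the glutamate receptor Grm3 at 1.44 (SE 0.62, edgeR adjusted p = 0.37). The glutamate decarboxylase gene Gad, which makes GABA, had 0.198 CPM or less in muscle and a log2 fold-change of −0.94 (SE 0.65, edgeR adjusted p = 0.646). Without the 3 libraries that stood apart 12 of the 17 synaptic genes had a lower fitted level (median −0.35, 0 called). None of the 4 inhibitors of metalloproteinases tested had an unadjusted p under 0.05 (0 called by edgeR and 0 by DESeq2), and the fitted log2 fold-changes of Timp2, Timp4 and Timp2c were −0.82, 0.29 and −0.21.

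**Figure D4:**
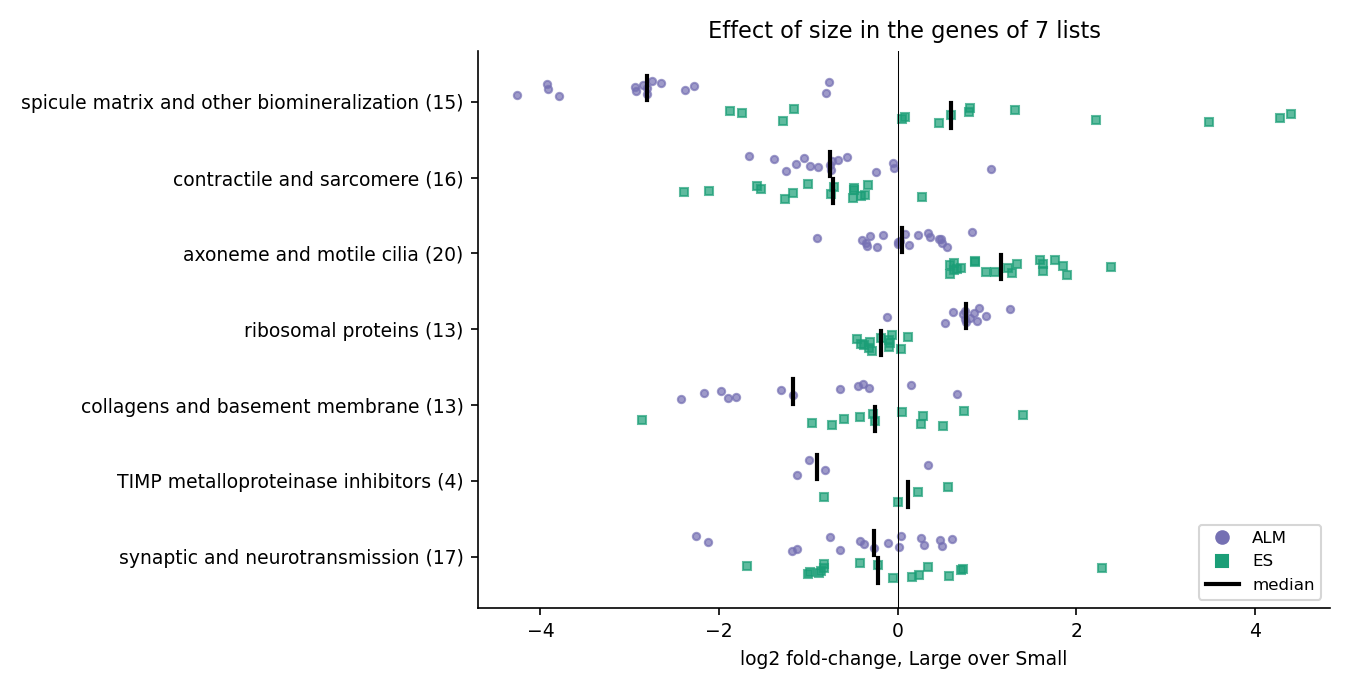
Log2 fold-change of Large over Small in ALM (circles) and ES (squares) for each tested gene of 7 lists, with the number of genes in parentheses and the median as a black bar. Of the contractile genes 15 of 16 lie below 0 in each tissue, of the skeleton genes 15 of 15 in ALM and 4 of 15 in ES, and of the axoneme genes 20 of 20 lie above 0 in ES and 13 of 20 in ALM.

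The genes that the study listed for 1 of the 2 tissues were also read in the other, on libraries that were not used to list them but came from the same animals. Of 43 genes listed for ALM and not for ES that were higher in ALM-L, 33 were higher in ES-L as well (median log2 fold-change 0.57), where 49.3% of all features were higher, and 11 had an unadjusted p under 0.05 in that direction and 0 in the other. Of the 67 that were lower in ALM-L, 34 were lower in ES-L (median −0.12, beside 50.6% of all features), 10 at an unadjusted p under 0.05, with 6 past it in the opposite direction. Over all features 8.36% had an unadjusted p under 0.05 for size in ES, in either direction. Genes listed for ES and not for ALM had the same direction in ALM in 29 of the 36 that were higher (median 0.68, beside 49.1% of all features). Of the 45 that were lower, 36 were lower in ALM too (median −0.49, beside 50.9% of all features). Across all features the effects in the 2 tissues had a Spearman rho of 0.31, with 59.3% of features of the same sign, and without the 3 libraries that stood apart 0.15 and 52.2%. This is a description across genes of the same pools, which are not independent replicates.

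The test of tissue by size called 0 features at an adjusted p under 0.05 with edgeR (0% of 34168). The lowest adjusted p was 0.0534, and 1560 features (4.57%) had an unadjusted p under 0.05. DESeq2 called 104, but it gave an adjusted p to only 13592 features. The 0 calls of edgeR do not show that the tissues responded alike. The difference between the tissues was measured less finely, with a median SE of 0.85 on the log2 scale against 0.42 for the common effect. Without ES-L 2010 edgeR called 29 features, and without the 3 libraries that stood apart 12. Among the 111 features called for the common effect the median size of the difference between tissues was 0.81 on the log2 scale (median SE 0.76), and 10 had an unadjusted p under 0.05 for it.

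The linked genes with the lowest unadjusted p for tissue by size had been listed by the study for 1 of the tissues. Gucy1b3 (SPU_000117), a subunit of the guanylate cyclase that responds to nitric oxide, was at 4.16, 5.63 and 4.31 CPM in ALM-S and 89.8, 25.7 and 64.4 CPM in ALM-L, but at 4.55, 4.92 and 4.16 CPM in ES-S and 1.17, 2.9 and 2.89 CPM in ES-L. The sizes were apart in opposite directions, with a difference of −4.61 on the log2 scale (ES minus ALM, SE 0.66, edgeR adjusted p = 0.0825). The skeleton gene Msp130r2 (SPU_016506), of a family of cell surface proteins of skeleton-forming cells, was at 76.5, 77.0 and 63.6 CPM in ALM-S and 13.6, 7.91 and 7.0 CPM in ALM-L and at 4.67 to 7.56 CPM in all esophagus libraries (difference 2.97, SE 0.48, edgeR adjusted p = 0.173). Cola2L_2 (SPU_020139), a collagen-like gene, was at 427 to 569 CPM in all muscle libraries and rose from at most 0.0928 CPM in ES-S to 0.729, 2.01 and 2.89 CPM in ES-L (difference 4.31, SE 0.68, edgeR adjusted p = 0.173). Without the 3 libraries that stood apart the adjusted p of edgeR was 0.0362 for Gucy1b3 and 0.0419 for Cola2L_2.

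Echinbp (SPU_013736), an echinenone-binding protein that the study measured by qRT-PCR, was listed for ALM. It was at 199, 189.7 and 71.9 CPM in ALM-S and 11.4, 16.6 and 13.7 CPM in ALM-L, and at 76.6, 82.8 and 57.0 CPM in ES-S and 29.0, 23 and 47.7 CPM in ES-L. The sizes did not overlap in either tissue, and the common log2 fold-change of −2.28 (SE 0.46) missed the threshold (edgeR adjusted p = 0.0518). In ALM its log2 fold-change was −3.46 and in ES −1.12, a difference that was not called (edgeR adjusted p = 0.603). IgfbpL7 (SPU_028902), whose vertebrate relatives bind insulin-like growth factors, had a common log2 fold-change of 1.3 (SE 0.34, edgeR adjusted p = 0.109), with 2.16 in ALM and 0.43 in ES (edgeR adjusted p = 0.61 for the difference). Not all of the genes that the study listed for both tissues could be linked. Of those linked, Hypp_2178, Gat and Slc16a12L_2 were called for the common effect and Rej8L (SPU_025339), a relative of the sperm receptor for egg jelly, was not. Rej8L stood at 30.9 to 38.2 CPM in ALM-S and 1.35 to 3.74 CPM in ALM-L. In esophagus it was at 11 to 181 CPM in ES-S and 107 to 1059 CPM in ES-L, where the sizes overlapped.

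The called features were also read in RN, whose libraries the model did not use but which came from the same animals, and where size and library series cannot be told apart. Of the 52 features that fell, 29 could be tested in RN, and 26 of them were lower in RN-L, 18 past the threshold, against 10.3% of all features called lower there. The linked genes among the 29 included Mrlc, Ckm, Gamt, Sm32, Bmp1/TldL2 and Slc29a1. The study had listed these for RN from the same libraries, so their fall there was set in advance. Of the 20 of the 29 with no gene name, 17 were lower and 10 were called. Of the 59 that rose, 53 could be tested, and 32 were higher in RN-L (48.7% of all features were higher and 51.3% lower), with 12 called higher and 7 called lower beside 11.4% of all features called higher. Mrlc and Ckm, both listed by the study for RN, had log2 fold-changes of −5.33 and −4.20 there, and Gat one of −0.07 (edgeR adjusted p = 0.905).

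**Figure D5:**
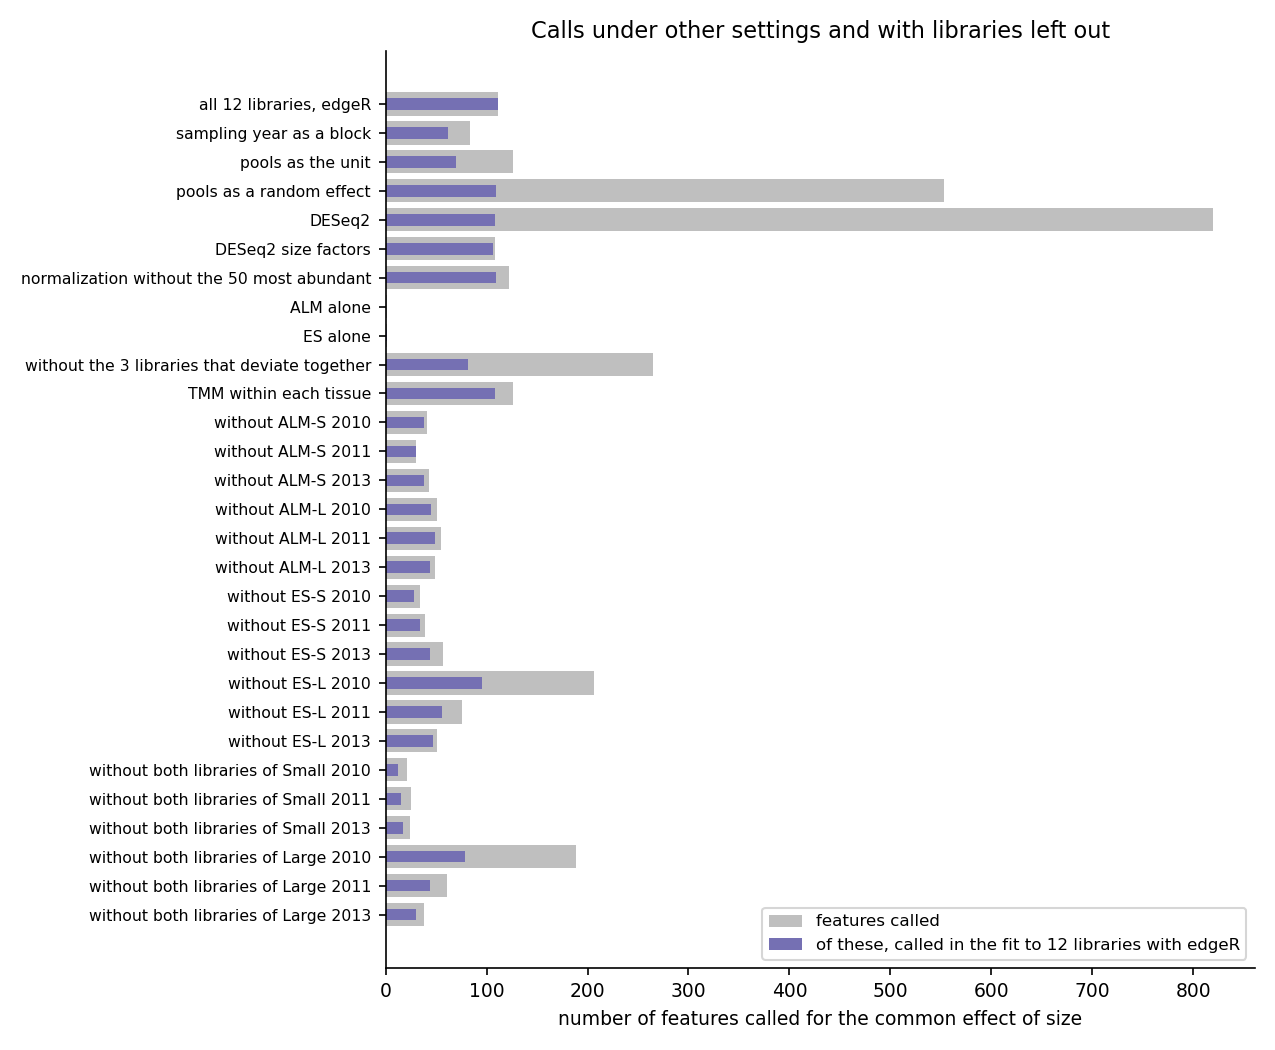
Number of features called for the common effect of size (grey bars) under other settings and with 1 library or 1 pool left out, and how many of them are among the 111 (purple bars). The fit without a filter on low counts, with 2301 calls, is not drawn. Counts range from 1 in a tissue alone to 820 with DESeq2, and from 21 to 206 when a library or pool is left out.

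The number of calls depended on single libraries. Leaving out 1 library gave 30 to 206 calls, and 28 to 95 of the 111 were among them. The count rose to 206 without ES-L 2010. It was 76 without ES-L 2011, and it fell by more than 1.5 times without any other library (30 to 57). Leaving out both libraries of a pool gave 21 to 25 calls for a Small pool and 189, 61 and 38 for the Large pools of 2010, 2011 and 2013. In the model with tissue by size, the contrast of size called 56 features in ALM (0.164%, and 8.04% at an unadjusted p under 0.05) and 10 in ES (0.0293% and 8.36%). When a tissue was fitted alone it gave 1 call, with 1683 features in ALM and 2438 in ES at an unadjusted p under 0.05. Permuting 3 pools against 3 exactly cannot give a p below 0.1 for 1 gene, so the p-values come from models over all features.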

How the data were processed

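RNA-Seq was analysed for ALM and ES of Small and Large animals. The authors deposited RSEM estimated counts per Trinity grouping, as whole numbers and not normalized. The submitters' processing notes name Trimmomatic 0.38 for trimming and Bowtie2 2.3.4 for alignment. The counts were used as deposited. A grouping was linked to a *S. purpuratus* (SPU) gene where its counts matched those the study prints for that gene (exactly, as the sum of a pair, as at least 95% of them, or through a printed mean count), which linked 1007 genes, and shuffled counts gave 1 false link. RSEM split reads among similar copies, and strand was not stated, so gene families and overlapping genes are uncertain. Features past edgeR's filterByExpr were normalized by TMM and tested with edgeR 4.0.16 (quasi-likelihood, tissue plus size, and tissue by size) in R 4.3.3, with Benjamini-Hochberg adjustment, and called where the adjusted p was below 0.05 and the log2 fold-change over 1 either way (tissue by size at the adjusted p alone). DESeq2 1.42.0 and limma 3.58.1 were alternatives, with others of normalization, filter, pool and left-out libraries. The sampling year is a label shared by Small and Large pools, so year was taken as the pairing for the replicate block and for pairs of libraries. The main fit did not pair by year. The deviations of same-year libraries of a tissue correlated from −0.465 to 0.284. Muscle and esophagus of a pool correlated from −0.429 to 0.363, and the consensus correlation within a pool was −0.134. The test was tested on simulated data. Precision is limited by 3 pools per size.

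Named genes were linked genes called (at most 12 per direction), the 3 lowest p of each list, the 3 lowest p per direction for tissue by size, genes listed by the study for both tissues, 4 unlinked groupings (2 per direction, lowest p with 1 direction in 6 of 6 pairs) and genes measured by the study by qRT-PCR. The members and lists were chosen with earlier results of these data known. The study's tables also hold the authors' own fold-changes and p-values. None is reported, and the fold-changes served only to tell apart groupings of the same mean count in linking. RN libraries were used only where named.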

Additional observations from a re-analysis of the deposited data

Results flagged for a closer look

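Some named genes moved one way in every sampling year of ALM and the opposite way in every year of ES. None passed the threshold for tissue by size over all 34168 features with edgeR and Benjamini-Hochberg adjustment. The difference in log2 fold-change (ES minus ALM) was −4.61 for Gucy1b3 (adjusted p = 0.0825), −2.93 for Ttrspn_8 (adjusted p = 0.278), −2.10 for the arylsulfatase Ars_3 (adjusted p = 0.278), 6.80 for Rej8L (adjusted p = 0.278), 5.80 for Hypp_580 (adjusted p = 0.212) and 1.56 for Timp2c (adjusted p = 0.943). Ars_3 was at 1336, 2076 and 1991 CPM in ES-S and 595, 642 and 545 CPM in ES-L, while ALM stayed between 12.3 and 20.4 CPM. Ttrspn_8 was at 3.76 to 4.63 CPM in ALM-S and 8.74 to 25.9 CPM in ALM-L, and at 167 to 295 CPM in ES-S and 106 to 147 CPM in ES-L. All but Timp2c had been listed by the study for 1 or both of these tissues.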

How the results depend on the processing

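The common effect of size was called for 111 features. It was called for 553 with pools as a random effect, 820 with DESeq2, 2301 with no filter on low counts, 1 in ALM alone, 1 in ES alone and, in an alternative chosen after seeing the data, 265 without the 3 libraries that stood apart. The replicate block (84), pools as the unit (126), DESeq2 size factors (108), normalization without the 50 most abundant groupings (122) and TMM within each tissue (126, chosen after seeing the data) stayed within 1.5 times. Leaving out 1 library or pool gave 21 to 206. The fit with no filter tested 120606 features, and DESeq2 gave an adjusted p for tissue by size to 13592. Pools as a random effect used the consensus correlation within a pool of −0.134, which does not widen the error of the common effect. Tissue by size, at 0, gave 104 with DESeq2, 285 with no filter, 2 without the 50 most abundant, 2 with TMM within each tissue, 12 without the 3 libraries and 0 to 29 with a library or pool left out, but 0 with the replicate block, with 1031 features at an unadjusted p under 0.05. Of the 18 linked genes called, 10 stayed called with the replicate block, 12 with pools as the unit, 12 without the 3 libraries and 18 with DESeq2, and no called gene turned its direction in these fits. Directions turned for uncalled genes only: Rpl24 was at −0.0265 with pools as the unit, −0.0327 with pools as a random effect, −0.0069 in ES alone and −0.613 without the 3 libraries, Rpl29 at −0.029 in ES alone and −0.522 without the 3, Rps28 at −0.244 without the 3 and Timp2c at 0.656 in ES alone. With a library or pool left out the log2 fold-change ran from −0.12 to 0.73 for Rpl24, −0.13 to 0.77 for Rpl29, −0.46 to 0.11 for Timp2c and −0.00854 to 0.49 for Timp4. The cause was not tested. Depth limits genes under 1 CPM, such as MstnB in ES-S with 0 to 4 counts per library.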
